A study of Homo sapiens with 6 samples.

Results

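The genes described here act at the replication fork or at the entry into S phase, the part of the cell cycle in which DNA is copied. They were chosen by name, with earlier results of these data known, as a list of 59 symbols. The list leaves out the helicase and licensing genes MCM2 to MCM7, GINS2 and CDT1. Of the 59, 31 (52.5%) had a probe set with exactly 1 gene symbol in the platform annotation and were measured. In all, 14884 genes were measured. For each symbol the probe set with the highest mean over the arrays was used. The other 28 were not analysed here, among them every listed DNA polymerase and primase subunit, RFC1 to RFC5, RPA1 to RPA3, ORC1, ORC2, ORC6, GMNN, LIG1, RNASEH2A, TK1, CHAF1A, CHAF1B and ATAD2.

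To copy a chromosome, a cell first marks origins with the origin recognition complex and loads an inactive helicase there. Kinases then switch the helicase on together with CDC45 and the GINS complex. Behind it, primase and polymerases lay down new DNA, held in place by the ring-shaped clamp PCNA, while enzymes of deoxynucleotide synthesis supply the building blocks and histone chaperones rebuild chromatin. Many of these genes are switched on at the border of G1 and S phase by E2F transcription factors, which are held back by proteins of the retinoblastoma family until cyclin-dependent kinases release them. Multiple myeloma arises from plasma cells, which secrete antibodies and in the healthy body have mostly stopped dividing.

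Total RNA was measured on 6 arrays of MM.1S, an established human myeloma cell line. Every sample, controls included, had first received Cfz, the common short form of the proteasome inhibitor carfilzomib, for 1 h. For the next 12 h, 3 were kept in the solvent DMSO and 3 in 10 µM ATRA (all-trans retinoic acid, which activates the retinoic acid receptors). The comparison of these groups shows what ATRA changed on top of the earlier Cfz pulse. Cells that had no Cfz are not analysed here. All values come from 1 cell line, and the labels do not say whether arrays of a group were separate cultures, so the p-values measure the spread between these arrays, which may be technical.

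Median intensities of the arrays, taken over all probe sets, ran from 9.40 to 9.76, and median log2 intensities of the 14884 genes from 4.18 to 4.23. Arrays have no read depth, and their number limits the precision of every value. The plasma cell genes SDC1, CD38, XBP1, IRF4, MZB1 and SLAMF7, the 6 measured of 10 listed, had mean log2 intensities from 8.29 to 10.9 with DMSO and from 10.00 to 11.1 with ATRA. Of 34 listed markers of B, T, NK, myeloid, erythroid, epithelial, fibroblast and endothelial cells, 18 were measured, with means from 2.37 to 7.23 with DMSO and from 2.40 to 7.08 with ATRA, and 0 passed an adjusted p of 0.05 in limma's test, while 3 had an unadjusted p under 0.05. Apart from the keratin gene KRT18, no marker had a mean above 5.06, which gives a rough idea of the signal from genes that are not expressed.

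Replication fork and S phase genes were lower with ATRA in nearly every case. Of the 31 measured, 24 fell (77.4%), 0 rose and 7 did not pass an adjusted p of 0.05 (limma, Benjamini-Hochberg over all 14884 genes). An unadjusted p under 0.05 was found for 30, and each of these 30 was lower with ATRA, as were 10.4% of all genes at that p. Over all genes, 2.07% fell (308) and 1.73% rose (257), so that 3.8% changed. With cyclic loess normalization, the split over all genes was 239 lower and 313 higher. The largest decrease was that of CCNE1, the cyclin that drives entry into S phase, at 2.10-fold, and the smallest among those that passed was that of RRM1, a subunit of ribonucleotide reductase, at 1.36-fold. The median log2 difference of the 31 genes, ATRA minus DMSO, was -0.69, or 1.61-fold lower, beside a median of -0.01 over all genes.

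For 30 of the 31, all 3 ATRA arrays lay below all 3 DMSO arrays, an arrangement found for 14.8% of all genes. The opposite arrangement was found for 0 of the 31 and for 9.86% of all genes. The exception was DUT. Of the 31, 20 were lower by 1.5-fold or more, against 2.04% of all genes. Ranked by difference from the lowest, 28 of the 31 stood within the first 635 of 14884 genes, and the other three, E2F2, DBF4 and DUT, ranked 1714, 1956 and 9232. Markers of plasma cells moved as well. Of the 6 measured, 3 rose with ATRA, namely CD38 (1.95), SDC1 (0.84) and XBP1 (0.54, lost in all 6 fits with 1 array left out, at an adjusted p of 0.0584 to 0.0758), while MZB1 (0.25), IRF4 (-0.17) and SLAMF7 (-0.31) did not pass. Their summed intensity ran from 7118 to 7402 on DMSO arrays and from 9007 to 9340 on ATRA arrays, with a median log2 difference of 0.39. The summed intensity of the 18 measured markers of other cell types ran from 368 to 472 with DMSO and from 360 to 381 with ATRA. The part of this change in the lower fork genes was not tested. In RNA from whole cultures, fewer cells in S phase and less of these RNAs per cell cannot be told apart.

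**Figure D1:**
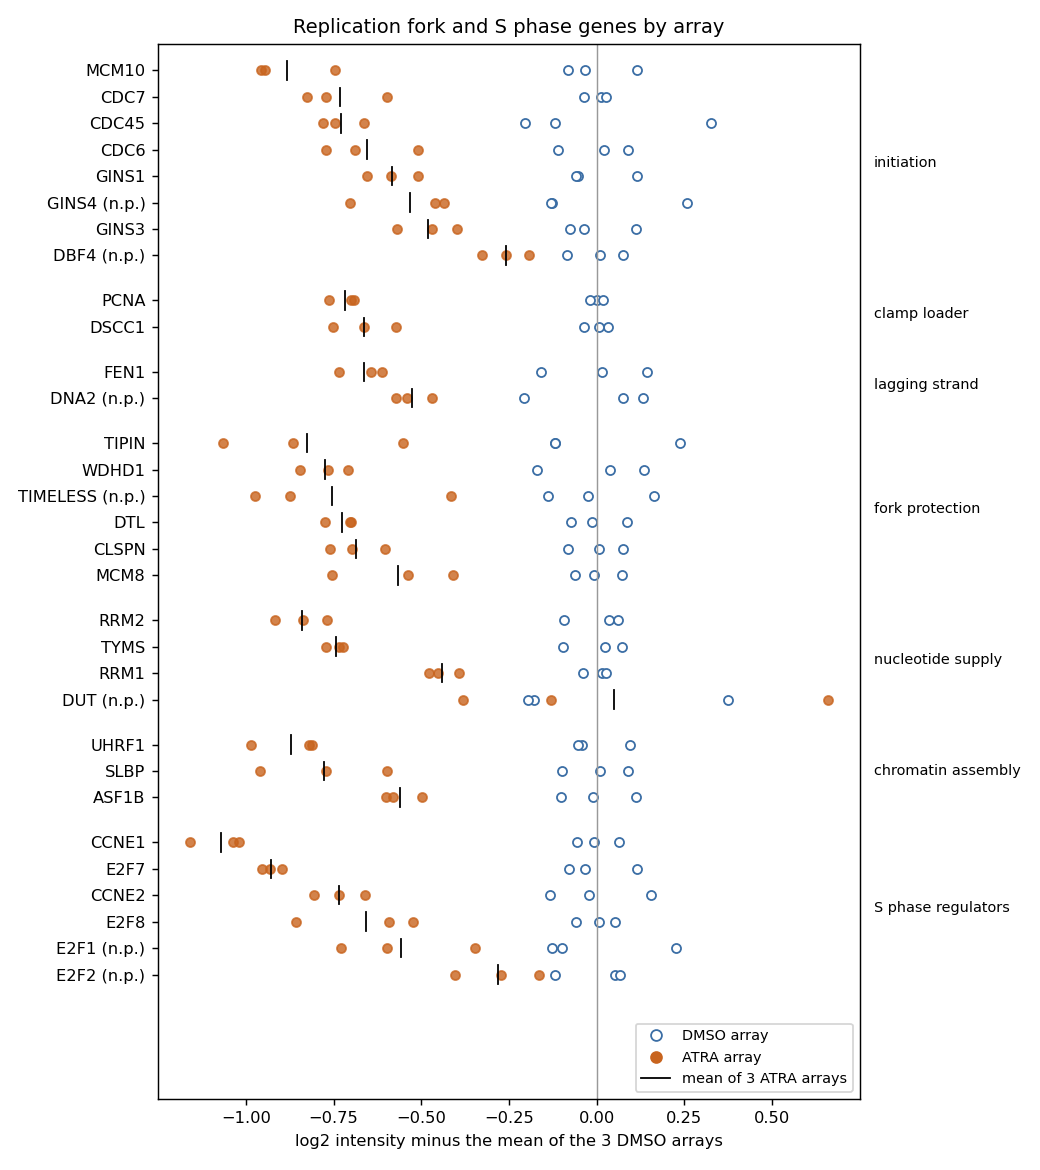
Log2 intensity of each measured gene on each array, minus the mean of its 3 DMSO arrays, grouped by role; open points are DMSO arrays, filled points ATRA arrays, the black line the mean of 3 ATRA arrays, and n.p. marks a gene that did not pass. For 30 of the 31 genes the filled points lie to the left of all open points, and DUT has mixed points.

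The promoters of these genes were searched for letters that E2F factors are known to bind. Many genes of this kind are known E2F targets, so their share of matches partly reflects how the list was chosen. Its link to the change with ATRA was not tested. The RefSeq table on GRCh38.p14 gives windows of 300 bases, from 250 before to 50 after an annotated start, and held windows for 26 of the 31 measured genes. An E2F-type match was TTTCGCGC, TTTGGCGC, TTTCCCGC or TTTGCCGC on either strand. Such a match stood in at least 1 window of 14 of the 26 (53.8%) and of 578 of the 10749 tested genes with a window (5.38%). Among all 27305 genes with a window the share was 3.99%. Counted by single windows, a match stood in 40.5% of those of the measured genes and in 3.31% of all 35116. A stretch is shown for each role in which a measured gene has a match. It comes from the gene with the largest difference among those with a match, which need not be the largest difference of the role. A stretch from DUT, the gene whose groups overlapped, is added. The stretches are written 5′ to 3′ on the gene's strand, with each E2F-type match in capitals.
CDC7 (chr1:91501014-91501115, plus strand): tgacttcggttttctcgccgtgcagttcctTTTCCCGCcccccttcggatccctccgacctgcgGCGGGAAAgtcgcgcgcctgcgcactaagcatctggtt
PCNA (chr20:5126644-5126711, minus strand): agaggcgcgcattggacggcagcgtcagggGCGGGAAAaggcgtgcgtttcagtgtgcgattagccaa
TIPIN (chr15:66356710-66356781, minus strand): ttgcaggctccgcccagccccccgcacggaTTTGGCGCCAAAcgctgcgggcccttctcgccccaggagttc
TYMS (chr18:657584-657651, plus strand): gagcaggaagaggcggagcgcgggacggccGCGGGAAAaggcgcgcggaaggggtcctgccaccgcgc
DUT (chr15:48332125-48332207, plus strand): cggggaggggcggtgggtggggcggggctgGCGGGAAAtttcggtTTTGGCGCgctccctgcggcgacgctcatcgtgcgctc
UHRF1 (chr19:4909457-4909524, plus strand): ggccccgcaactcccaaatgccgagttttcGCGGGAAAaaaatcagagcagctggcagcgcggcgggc
E2F1 (chr20:33686368-33686448, minus strand): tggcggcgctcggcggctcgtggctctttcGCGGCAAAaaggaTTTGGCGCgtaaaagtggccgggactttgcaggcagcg

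In the TIPIN stretch, 2 matches on opposite strands overlap. CDC7, E2F1 and DUT also hold 2 matches each, and in E2F1 they begin 33 and 20 bases before the annotated start. DUT holds its pair in 1 of its 4 windows. Among the 21 genes that fell and have a window, 11 hold a match, and among the 5 that missed the threshold and have a window, 3 do. Windows of CCNE1, E2F7, MCM10 and RRM2, 4 of the larger decreases, hold none of these letters, which says only that these letters are absent from those windows. A match is a description of the sequence and was not tested for binding.

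Other promoter letters were distributed differently. The CCAAT box, searched as CCAAT on either strand, stood in 61.5% of the 26 measured genes with a window and in 41.4% of tested genes. The CHR element of genes that peak in mitosis was searched as TTTGAA or TTCGAA on either strand. It stood in 15.4% of the measured fork genes with a window and in 17.0% of tested genes. Of 30 listed mitotic genes, measured or not, 24 had a window, and 18 of these (75%) held it. E2F-type matches were found in 2 of those 24 mitotic genes (8.33%) and in all 6 licensing and helicase genes with a window. Of all genes with a window, 41 of 241 that fell (17.0%) and 11 of 206 that rose (5.34%) held a match. The 41 include 11 fork genes and the licensing and helicase genes, so this share is not independent of theirs. The median GC content, taken for each gene from its richest window, was close, at 65.7% for the measured genes and 64.7% for tested genes.

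**Figure D2:**
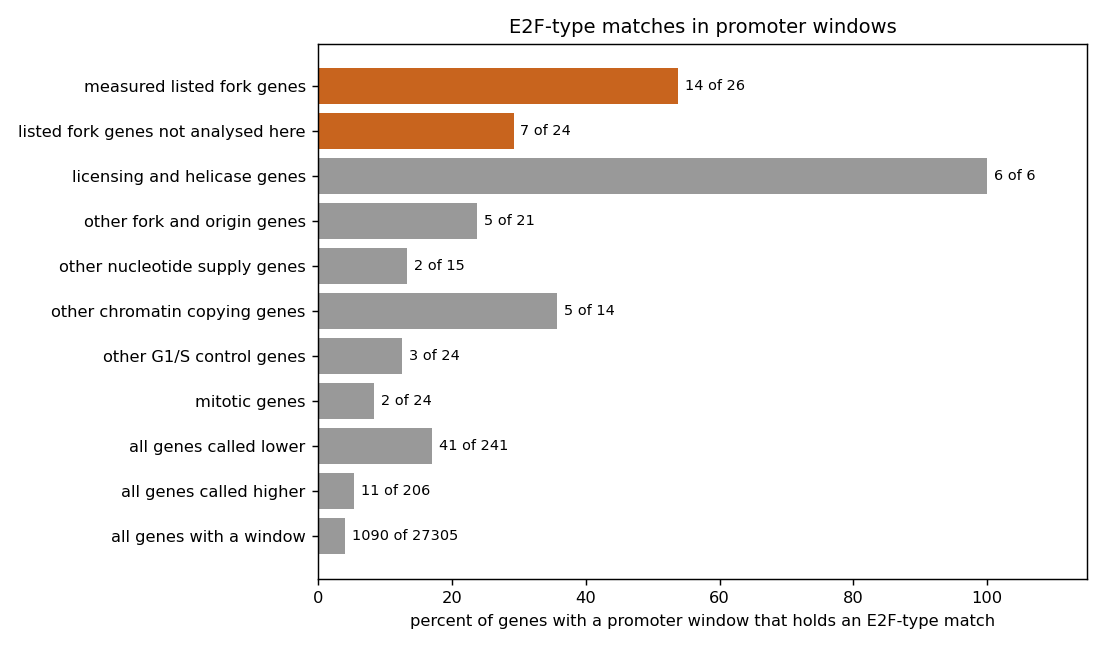
Percent of genes with at least 1 promoter window that holds an E2F-type match, by gene list, with the counts beside each bar. The listed fork genes (measured, 14 of 26, and not analysed here, 7 of 24) and the licensing and helicase genes (6 of 6) stand above all genes with a window (1090 of 27305).

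Genes of origin firing and helicase activation were lower with ATRA throughout. Of 12 listed, 8 were measured, of which 6 fell and 2 did not pass, with a median difference of -0.62. The decrease was largest for MCM10, a factor that activates the loaded helicase. Its log2 intensities were 7.91, 8.11 and 7.96 on DMSO arrays 1, 2 and 3 and 7.05, 7.04 and 7.25 on ATRA arrays 1, 2 and 3, an order kept below. The groups lay far apart, with a difference of -0.88 (SE 0.11, adjusted p = 0.00650), or 1.84-fold. CDC7, the catalytic subunit of the kinase that fires origins and the bearer of 2 of the E2F-type matches shown, fell 1.66-fold, from an intensity of 106 ± 2.42 to 64.0 ± 5.36 (SD, n = 3 arrays each).

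DBF4 is the regulatory subunit that activates CDC7. It was at 7.46, 7.62 and 7.56 with DMSO and 7.29, 7.22 and 7.35 with ATRA. The groups did not overlap, but the difference of -0.26 did not pass (adjusted p = 0.199), with a 95% confidence interval of -0.48 to -0.04. That of CDC7 ran from -0.96 to -0.51. Whether the 2 subunits of this kinase differed in response was not tested.

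CDC45 and the GINS complex travel with the helicase. CDC45 differed by -0.73 (1.66-fold lower), GINS1 by -0.58 and GINS3 by -0.48, and each of them fell. CDC45 stood unevenly among DMSO arrays, at 6.56, 7.09 and 6.64. GINS4 was at 5.44, 5.82 and 5.44 with DMSO and 5.13, 5.11 and 4.86 with ATRA. Its values did not overlap, yet the difference of -0.53 did not pass (adjusted p = 0.0962), except with the dimmer 50% of genes left out (0.0399). DMSO array 2 was the highest for both CDC45 and GINS4, and the ATRA mean of GINS4, 5.03, lay at the upper end of the markers of other cell types. A second, dimmer probe set of GINS4 had means of 2.56 and 2.78, a difference of 0.22. CDC6, which helps load the helicase at origins, fell 1.58-fold, from 135 ± 9.33 to 85.5 ± 8.02.

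MCM10 and CDC7 kept their calls in all 6 fits with 1 array left out. CDC45, GINS1 and GINS3 lost theirs whichever array was left out (adjusted p up to 0.129, 0.0817 and 0.144). CDC6 kept its call only without ATRA array 1 (adjusted p = 0.0390) and reached 0.0847 without DMSO array 3. GINS3 also missed the threshold with arrays shifted to a common median (0.0515), quantile normalization (0.0560) and cyclic loess (0.0671), and CDC45 with cyclic loess (0.0558).

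The sliding clamp and 1 gene of its loaders could be followed. PCNA, the ring that tethers polymerases to DNA, was at 9.75, 9.73 and 9.76 with DMSO and 9.05, 8.98 and 9.04 with ATRA. Both groups were tight and well apart, and PCNA fell by 0.72 on the log2 scale (SE 0.083, adjusted p = 0.00579), from an intensity of 858 ± 10.6 to 521 ± 14.0. DSCC1, a subunit of an alternative clamp loader that also acts in sister chromatid cohesion, was at 5.78, 5.71 and 5.76 with DMSO and 5.18, 5.0 and 5.09 with ATRA. It fell by 0.66 (SE 0.091, adjusted p = 0.0106), from levels not far above those of markers of other cell types. PCNA kept its call in all 6 fits with 1 array left out, and DSCC1 lost it without DMSO array 1 (adjusted p = 0.0532). These are 2 of 7 listed genes, and the 5 RFC subunits of the main loader were not analysed here.

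On the lagging strand, 2 of 7 listed genes were measured. FEN1, the nuclease that trims the flaps of Okazaki fragments, was at 7.62, 7.45 and 7.75 with DMSO and 6.87, 6.99 and 6.96 with ATRA. It fell by 0.66 (SE 0.11, adjusted p = 0.0193). DNA2, a nuclease and helicase for longer flaps, was at 6.31, 6.59 and 6.65 with DMSO and 6.05, 5.98 and 5.94 with ATRA. All its ATRA arrays were below all its DMSO arrays, with DMSO array 1 the nearest to them, and the difference of -0.53 just missed the threshold (adjusted p = 0.0539). It passed with the dimmer 50% (0.0198) or 25% (0.0408) of genes left out and with eBayes with trend and robust (0.0143). FEN1 kept its call only without DMSO array 2 (0.0322), and with any other array left out its adjusted p was between 0.0571 and 0.0805.

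All 6 listed genes of fork protection were measured, of which 5 fell, with a median difference of -0.74. TIPIN and TIMELESS form a complex that steadies the fork. TIPIN was at 6.58, 6.58 and 6.94 with DMSO and 5.64, 6.15 and 5.84 with ATRA, a difference of -0.83 (SE 0.16, adjusted p = 0.0399). TIMELESS was at 7.52, 7.33 and 7.22 with DMSO and 6.38, 6.94 and 6.48 with ATRA, a difference of -0.75 that just missed the threshold (SE 0.16, adjusted p = 0.0547). For both partners ATRA array 2 was the nearest to the DMSO arrays. Without that array TIMELESS passed (0.0279) and TIPIN kept its call (0.0362), while without any other single array TIPIN missed it (0.0866 to 0.120). TIMELESS also passed with the dimmer 50% (0.0247) or 25% (0.0450) of genes left out, with arrays shifted to a common median (0.0486) and with eBayes with trend and robust (0.00432).

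CLSPN, or claspin, carries the checkpoint signal from ATR to CHK1, and fell 1.61-fold. WDHD1, which ties polymerase alpha to the helicase, fell 1.71-fold, from 119 ± 12.6 to 69.6 ± 3.31. DTL, the subunit that directs a ubiquitin ligase to proteins bound to PCNA, fell 1.65-fold, from 1117 ± 63.3 to 675 ± 19.1. MCM8, a relative of the helicase subunits that acts in recombination repair, was at 9.74, 9.66 and 9.61 with DMSO and 8.92, 9.13 and 9.26 with ATRA. It fell by 0.57, the least of the 6, and its ATRA arrays were spread more widely than its DMSO arrays. DTL kept its call in all 6 fits with 1 array left out. CLSPN lost it without DMSO array 1 (0.0509), WDHD1 without DMSO array 1 (0.0509), ATRA array 1 (0.0540) and ATRA array 3 (0.0502), and MCM8 in all 6 (0.0581 to 0.136) and with cyclic loess (0.0668). A second probe set of CLSPN, at means of 2.6 and 2.51, lies among the markers of other cell types, and averaging both took the difference to -0.39 (adjusted p = 0.100).

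Nucleotide supply was lower in 3 of 4 measured genes of 5 listed. Ribonucleotide reductase makes deoxynucleotides from ribonucleotides. Its small subunit gene RRM2, which is switched on in S phase, was at 10.80, 10.83 and 10.67 with DMSO and 9.85, 10.00 and 9.93 with ATRA. The groups stood wide apart and RRM2 fell by 0.84 (SE 0.094, adjusted p = 0.00514), or 1.79-fold. RRM1, the large subunit gene, fell by 0.44 (SE 0.085, adjusted p = 0.0364), from 1028 ± 24.8 to 758 ± 23.1. The 95% confidence intervals, -1.06 to -0.62 for RRM2 and -0.64 to -0.24 for RRM1, overlap slightly, and the difference between them was not tested.

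TYMS, thymidylate synthase, fell 1.67-fold, from 765 ± 45.1 to 457 ± 7.80. DUT, the enzyme that removes dUTP so that uracil stays out of DNA, was at 4.10, 4.09 and 4.65 with DMSO and 4.15, 4.94 and 3.90 with ATRA. Its arrays overlapped fully, and the difference of 0.05 did not pass (adjusted p = 0.954, 95% confidence interval -0.61 to 0.71). All these values lie under the 5.06 of the brightest marker other than KRT18, so the DUT probe set gave too little signal to judge. Without DMSO array 1, DMSO array 2 or ATRA array 2 its difference was -0.04, -0.05 and -0.26. RRM2 and TYMS kept their calls in all 6 fits with 1 array left out. RRM1 lost its call in all 6 (0.0827 to 0.123), with quantile normalization (0.0526) and with cyclic loess (0.0603).

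Genes that rebuild chromatin on new DNA fell in 3 of 3 measured cases of 6 listed. UHRF1, which brings the maintenance methyltransferase DNMT1 to newly copied DNA, was at 7.61, 7.60 and 7.74 with DMSO and 6.84, 6.66 and 6.83 with ATRA. It fell 1.83-fold (difference -0.87, SE 0.098, adjusted p = 0.00514), with no overlap. SLBP, which binds the stem-loop of histone mRNAs, fell 1.71-fold, from 536 ± 34.5 to 314 ± 39.0. ASF1B, a chaperone of histones H3 and H4, was at 7.57, 7.69 and 7.48 with DMSO and 6.98, 7.0 and 7.08 with ATRA, and fell by 0.56 (SE 0.096, adjusted p = 0.0238). UHRF1 kept its call in all 6 fits with 1 array left out. SLBP kept it only without ATRA array 1 (0.0292) and was between 0.0509 and 0.0685 without any other, and ASF1B lost it in all 6 (0.0579 to 0.0892).

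Among regulators of S phase entry all 6 listed genes were measured, and 4 fell. CCNE1, which encodes cyclin E1, the partner of CDK2, was at 7.43, 7.50 and 7.39 with DMSO and 6.42, 6.28 and 6.41 with ATRA. The groups were tight and about 1 log2 unit apart (difference -1.07, SE 0.091, adjusted p = 0.00164), and the intensity went from 174 ± 7.22 to 82.8 ± 4.30. CCNE2, the gene of cyclin E2, fell 1.66-fold, from 65.8 ± 6.62 to 39.4 ± 1.99.

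The E2F genes did not all pass. E2F7 and E2F8, atypical members that repress their targets, fell 1.90-fold and 1.58-fold. E2F1, an activator of S phase genes, was at 6.79, 7.15 and 6.82 with DMSO and 6.57, 6.32 and 6.19 with ATRA, giving a difference of -0.56, above the threshold (adjusted p = 0.0897, 95% confidence interval -0.89 to -0.22). E2F2, another activator, was at 8.66, 8.83 and 8.84 with DMSO and 8.5, 8.61 and 8.37 with ATRA, giving a difference of -0.28, also above it (adjusted p = 0.223, interval -0.53 to -0.03). In both the ATRA arrays lay below the DMSO arrays by a small margin. Repressors and activators were not tested against each other, and the E2F7 interval, -1.14 to -0.71, overlaps that of E2F1 and not that of E2F2.

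E2F1 passed with the dimmer 50% of genes left out (0.0377), and both activators passed with the trended, robust form of eBayes (0.0175 and 0.0365). CCNE1 and E2F7 kept their calls in all 6 fits with 1 array left out. E2F8 kept its call only without ATRA array 2 (0.0440; 0.0581 to 0.0920 otherwise). CCNE2 lost its call without DMSO array 1 (0.0509), DMSO array 3 (0.0563), ATRA array 1 (0.0579) and ATRA array 3 (0.0545).

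Over all 31 genes, the count that fell went from 24 to 9, 14 and 12 without DMSO array 1, 2 and 3 and to 13, 16 and 11 without ATRA array 1, 2 and 3. The genes called in all 6 of these fits were the 9 named above for it, CCNE1, E2F7, UHRF1, RRM2, PCNA, MCM10, TYMS, DTL and CDC7. Of these, CDC7 lost its call with the replicate number as a block in limma's fit (adjusted p = 0.0547). With limma's treat, a test against a minimum of 1.2-fold, CDC7 and DTL lost theirs (adjusted p = 0.0648 and 0.0510). The median difference moved little, between -0.71 and -0.67. No single array set the level of the group, since each array's mean deviation from its group over the 31 genes was between -0.04 and 0.04 log2 units.

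**Figure D3:**
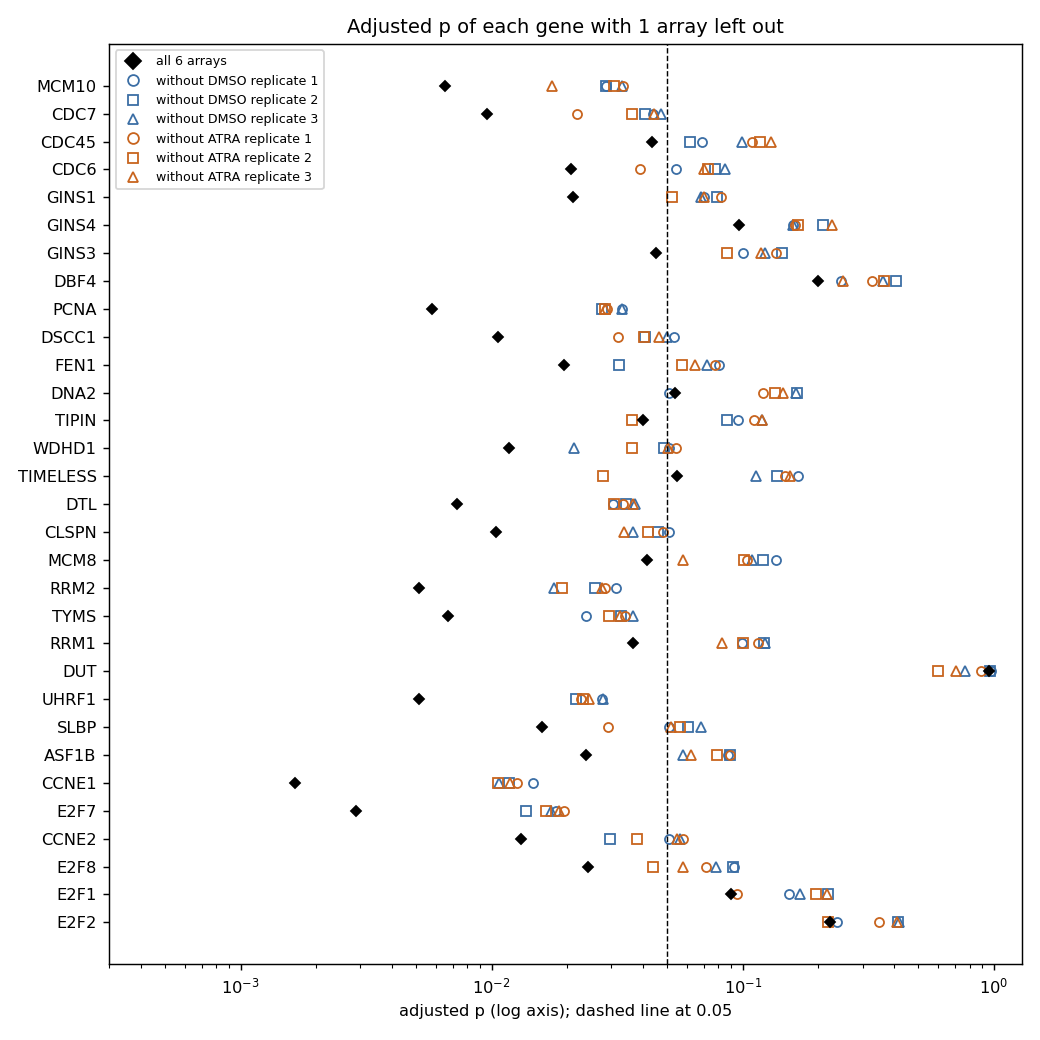
Adjusted p of each measured gene, on a log axis, with all 6 arrays (diamonds) and with 1 array left out (open marks, blue for a DMSO array and orange for an ATRA array); the dashed line marks 0.05. For CCNE1, E2F7, UHRF1, RRM2, PCNA, MCM10, TYMS, DTL and CDC7 every mark lies left of the line. For CDC45, GINS1, GINS3, MCM8, RRM1 and ASF1B only the diamond does.

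The licensing and helicase genes left out of the list moved the same way, with 8 of 8 fallen and a median of -0.87. GINS2, the partner of GINS1, GINS3 and GINS4, fell by 1.38 on the log2 scale, to a mean of 4.72 that lies among the markers of other cell types. Of 25 other genes of forks and origins 11 were measured and 4 fell, namely CDC25A (-0.86), the phosphatase that activates CDK2, TICRR (-0.71), which helps fire origins, DONSON (-0.61), which takes part in helicase assembly, and MCMBP (-0.56), which binds the MCM proteins. The other seven, among them the topoisomerase genes TOP1 (-0.03) and TOP2A (-0.15), did not pass. CDC25A and all 8 licensing and helicase genes kept their calls in all 6 fits with 1 array left out. TICRR kept it only without DMSO array 3 (0.0418; 0.101 to 0.132 otherwise), DONSON and MCMBP only without ATRA array 2 (0.0354 and 0.0434), and both reached 0.0721 without DMSO array 3.

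Of 17 other nucleotide supply genes 8 were measured, and SHMT1 (-0.64), an enzyme of folate metabolism, was the 1 that fell, with a median of -0.29. The SHMT1 mean was 5.51 with DMSO and 4.87 with ATRA, the latter under the 5.06 of the brightest marker other than KRT18. Of 15 other chromatin copying genes 13 were measured and 4 fell, CDCA7 (-0.73), PCLAF (-0.64), a PCNA-binding protein, NASP (-0.63), a chaperone of histones H3 and H4, and HAT1 (-0.45), a histone acetyltransferase. The CDCA7 level, 4.46 with DMSO, is within the range of the markers of other cell types. CDCA7 kept its call in all 6 fits with 1 array left out, PCLAF and HAT1 lost theirs in all 6 (up to 0.120 and 0.134), SHMT1 without DMSO array 1, 2 or 3 or ATRA array 3 (0.0509, 0.0560, 0.0573 and 0.0524) and NASP without DMSO array 2 or 3 or ATRA array 1 or 3 (0.0614, 0.0685, 0.0630 and 0.0546). DNMT1, the partner of UHRF1, differed by -0.16 and did not pass (adjusted p = 0.425).

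Of 30 other genes that control the passage from G1 to S phase, 19 were measured and 7 fell, with a median of -0.27. The largest decreases were those of MYBL2 (-0.95), a transcription factor of cycling cells, CDK2 (-0.82), the kinase of cyclin E, CCND2 (-0.74), cyclin D2, and TFDP1 (-0.63), the partner with which E2F1 and the other typical E2F factors bind DNA. The retinoblastoma family genes RB1 (-0.58) and RBL1 (-0.60), which hold E2F factors back, and CDK4 (-0.47), a kinase of cyclin D, fell as well, while their relatives RBL2 (0.12, adjusted p = 0.598) and CDK6 (-0.06, adjusted p = 0.823) did not pass. MYBL2, CDK2 and CCND2 kept their calls in all 6 fits with 1 array left out, and RB1 and CDK4 lost theirs in all 6 (up to 0.0782 and 0.116). TFDP1 and RBL1 kept theirs only without ATRA array 3 (0.0441 and 0.0459) and otherwise reached 0.0883 and 0.0947. The cyclin-dependent kinase inhibitor genes CDKN1A and CDKN1B were not analysed here.

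Of 30 mitotic genes 24 were measured and 1 fell, CCNA2 (-0.47), cyclin A2, with a median of -0.21. That is a share of 4.17%, against 2.07% of all genes that fell. All ATRA arrays lay below all DMSO arrays for 15 of the 24 (14.8% of all genes). An unadjusted p under 0.05 was found for 11, each lower with ATRA, as were 10.4% of all genes at that p. CCNA2 lost its call in all 6 fits with 1 array left out (0.0783 to 0.113). The largest differences that did not pass were those of AURKB (-0.48, adjusted p = 0.0673) and CCNB1 (-0.43, adjusted p = 0.0551). Over these lists together, without repeats, 25 of 82 measured genes fell and 0 rose, and 39 fell with eBayes with trend and robust. The lists were described by counts and medians, and the difference between fork and mitotic genes was not tested.

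**Figure D4:**
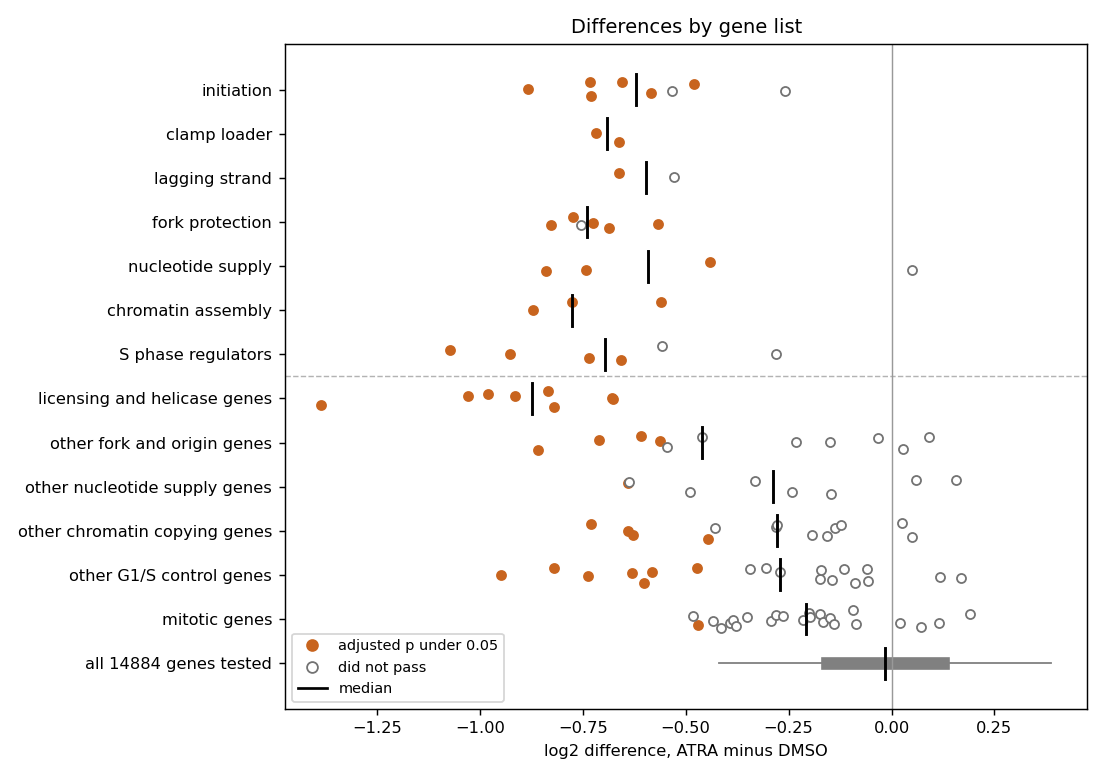
Log2 difference, ATRA minus DMSO, of each measured gene (points, filled where the adjusted p is under 0.05) with the list median (black line), for the roles of the fork genes above the dashed line and other lists below it; the bottom row gives the median, the 25th to 75th percentile (thick bar) and the 5th to 95th (thin line) of all genes. Role medians lie between -0.78 and -0.59, that of mitotic genes at -0.21 and that of all genes at -0.01.

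Genes that start close to a fork gene on the other strand were followed too. In the promoter table, 17 of the 59 listed genes have a neighbour on the other strand whose start lies at most 1000 bases upstream, a comparison chosen after the values of the fork genes were seen. Of these neighbours 10 were tested, with differences from -0.23 to 0.24 and a median of -0.13. In limma's test 0 of the 10 passed, where 3.8% of all genes did, and 0 had an unadjusted p under 0.05, where 17.9% of all genes did, so with 10 genes the lack of calls is close to the background. For PCNA (-0.72) the neighbour CDS2 differed by 0.05, for FEN1 (-0.66) TMEM258 by 0.04, for WDHD1 (-0.77) SOCS4 by 0.06, for DTL (-0.73) INTS7 by -0.15, for MCM8 (-0.57) TRMT6 by -0.17 and for TIPIN (-0.83) MAP2K1 by -0.20. The difference within a pair was not tested.

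The 5 genes outside the list whose values over the 6 arrays were most like the mean standardised profile of the 31 genes were GPAT3, ODC1, HMCES, CPNE2 and CENPH, with Pearson correlations from 0.997 to 0.999. They fell by 0.71, 0.46, 0.98, 1.05 and 0.52 on the log2 scale. ODC1 and CENPH lost their calls in all 6 fits with 1 array left out (up to 0.106 and 0.0772). Such a profile is mainly the contrast of both groups, and 407 of 14853 other genes correlated above 0.95, so these correlations over 6 arrays are a description.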

How the data were processed

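The deposited values are intensities on a linear scale, 1 for each of 53617 probe sets and 6 arrays, as the authors made them. Per the submitters' processing notes, RMA and limma were used, with no version or role stated. Their genome build is not given in the sources used here. Platform annotation gave 1 symbol to 16098 probe sets (30.0%), several to 0, and left 37519 unnamed here. Log2 values of the 14884 symbols, each by its brightest probe set, were compared between 3 ATRA and 3 DMSO arrays with limma 3.58.1 in R 4.3.3 (lmFit, eBayes, two-sided, no block, no filter). P-values were adjusted by Benjamini-Hochberg across all genes, and the threshold was 0.05. The steps were tested on simulated data. Each SD is that of 3 linear intensities, and each fold comes from the log2 difference. Same-numbered arrays of the groups did not deviate together over all genes (correlations 0.02, 0.01 and 0.02). Over the 31 members these gene-by-gene correlations were negative (-0.34, -0.42 and -0.37), though mean deviations of same-numbered arrays over the members shared their sign.

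Members, roles and lists were chosen with earlier results of these data known. Every measured member is named, with array values for the largest and smallest difference of each role and for any that was higher or did not pass. Of other lists, up to 4 called genes with the largest difference are named, or the 2 largest with none called, and other genes of those lists, such as RB1, RBL1, RBL2, CDK4, CDK6, TOP1, TOP2A, DNMT1, AURKB and CCNB1, were chosen after their values were seen. The 5 genes of most similar profile follow from their correlation. Alternatives were a replicate block, left-out arrays, filters on dim genes, other normalizations, variance models, array weights, other probe set choices and a minimum fold.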

Additional observations from a re-analysis of the deposited data

How the results depend on the processing

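The measured members that fell (24) and rose (0) were recomputed under 17 alternatives, and the count that rose was 0 in all of them. With 1 array left out, the members that fell numbered 9 to 16, the other pathway genes that fell 13 to 17 (25 with all arrays), and all genes that fell 95 to 165 and rose 112 to 152. A fit on 5 arrays has less power. The median member difference (-0.69) was -0.71 to -0.67 in these fits and -0.62 with cyclic loess, and no member that had passed turned its sign under any alternative. With limma's treat at a minimum of 1.2-fold, 7 members, 9 other pathway genes, and 69 lower and 100 higher genes in all passed, since this test asks for more than a difference from 0.

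With eBayes with trend and robust 833 genes fell and 494 rose in all, and 39 other pathway genes fell and 1 rose. Without the dimmer 50% of genes, where 7442 were tested, 707 fell and 436 rose. The cause of the larger counts was not tested. DUT, at 0.05, ranged from -0.26 to 0.26 with 1 array left out and was at -0.04, -0.05 and -0.26 without DMSO replicate 1, DMSO replicate 2 and ATRA replicate 2. The second brightest probe set of GINS4 gave 0.22 in place of -0.53, and that of CLSPN -0.09.

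The arrays share replicate numbers, and the labels do not say whether these pair them, so they were treated as unpaired. Deviations of same-numbered arrays from their group means correlated at 0.01 to 0.02 over all genes. Over the 31 members these correlations were negative, at -0.42 to -0.34, and the reason was not tested. With the replicate number as a block, 8 members fell and 0 rose, 10 other pathway genes fell, and 87 genes fell and 113 rose in all. Within the limits of 3 arrays a group, values near those of markers of other cell types, as for DUT and GINS4, carry little information.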
